A study of Homo sapiens with 4 samples.

Results

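The accessible chromatin of OPM-2 cells, a human multiple myeloma line with the t(4;14) translocation, was compared after 72 h with 1 μM all-trans retinoic acid (ATRA) plus 1 μM pomalidomide (POM) and after 72 h with 1 μM POM alone. Both libraries carried POM, and by label they differed in ATRA. With 1 library each, an effect of ATRA cannot be told apart from other differences between the libraries. The regions compared were the 74145 ATRA+POM peaks and the 42388 POM peaks of 300 bp or wider on chromosomes 1 to 22 and X, 116533 of the 307634 peaks in the 4 lists of the series. Peaks that overlapped were compared by their rank within their own library, and peaks without any overlap in the other list were taken from the 30000 highest of each list. ATRA alone at 1 μM and the DMSO vehicle, also at 72 h, gave a second comparison of ATRA with its absence that shares no library with the first. Each condition was 1 library, so no difference below has a replicate check, no test between conditions was possible, and every interval covers counting error only.

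ATRA is the ligand of the retinoic acid receptors (RARA, RARB and RARG), which sit on DNA as pairs with the retinoid X receptors and bind repeats of a short half-site. RARB and the ATRA-degrading enzyme CYP26A1 are among their classic targets. POM binds cereblon (CRBN) and directs the degradation of the lymphoid transcription factors IKZF1 and IKZF3, on which myeloma cells and their regulators IRF4 and MYC depend. ATAC-seq maps open chromatin through the insertion of Tn5 transposase, and a peak's height reflects openness together with sequencing depth.

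Promoter sequences of 3 genes are given because the results turn on CD1D, whose promoter had the largest scaled gain of the shared one-to-one peaks, and because RARB and CYP26A1 carry the textbook retinoic acid element. They are the RefSeq windows (GRCh38.p14, forward strand of each gene, which here is the plus strand) from 250 bases before to 50 after the start site. Capitals mark a half-site on either strand, which is AGGTCA, or the variant AGTTCA, or the variant GGGTCA, or the variant GGTTCA. The windows lie at chr1:158179697-158179996 for CD1D, chr3:25428013-25428312 for RARB and chr10:93073643-93073942 for CYP26A1.
CD1D: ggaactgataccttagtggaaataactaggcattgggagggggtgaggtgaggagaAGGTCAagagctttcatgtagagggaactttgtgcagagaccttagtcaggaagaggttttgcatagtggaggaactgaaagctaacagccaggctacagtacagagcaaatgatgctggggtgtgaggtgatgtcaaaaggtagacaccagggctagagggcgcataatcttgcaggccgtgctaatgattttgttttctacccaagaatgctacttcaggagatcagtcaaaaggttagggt
RARB: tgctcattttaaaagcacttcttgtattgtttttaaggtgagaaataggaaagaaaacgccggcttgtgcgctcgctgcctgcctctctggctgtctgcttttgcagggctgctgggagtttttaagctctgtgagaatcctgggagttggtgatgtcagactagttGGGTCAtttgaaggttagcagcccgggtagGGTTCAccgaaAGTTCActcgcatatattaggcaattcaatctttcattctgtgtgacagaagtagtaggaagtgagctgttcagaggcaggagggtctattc
CYP26A1: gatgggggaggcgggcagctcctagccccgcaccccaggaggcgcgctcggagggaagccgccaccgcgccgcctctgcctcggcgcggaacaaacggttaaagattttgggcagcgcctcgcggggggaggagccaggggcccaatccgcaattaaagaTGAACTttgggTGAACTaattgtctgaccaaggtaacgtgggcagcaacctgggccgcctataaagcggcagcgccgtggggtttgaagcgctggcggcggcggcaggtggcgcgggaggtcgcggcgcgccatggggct
The CD1D window held 1 half-site, at base 57 of the window. The RARB and CYP26A1 windows each held the direct repeat with a spacing of 5 bases, at bases 198 to 214 and 161 to 177. That repeat was present in 17 of all 22130 RefSeq windows (0.0768%), whereas at least 1 half-site was present in 35.5% of them. The CD1D window lay in a peak of every library. Neither the RARB nor the CYP26A1 window overlapped a peak of ATRA+POM or of POM. Among windows in shared pairs, 31.8% of those higher in ATRA+POM, 28.6% of those lower and 30.6% of all held a half-site. The direct repeat was in 0 of the 1578 windows higher, 1 of the 1443 lower and 5 of all 10705, too few to compare.

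Both lists had peaks at plasma cell genes. All 8 plasma cell and myeloma markers (among them SDC1, PRDM1, IRF4, XBP1, TNFRSF17 and CD38) had a peak within 1 kb of a start site in ATRA+POM and in POM, and none of the monocyte, erythroid and epithelial markers did. Of 5 T cell markers, CD3E and CD8A had one, with 95 and 41 fragments at the summit in ATRA+POM and 97 and 41 in POM. These values lay within the range of the 8 plasma cell and myeloma markers, 38 to 156 in ATRA+POM and 19 to 113 in POM. The ATRA+POM library was deeper. The background recovered from the deposited folds and p-values was 1.51 fragments, against 0.550 in POM. The deeper library also had wider peaks, 86.8% of them of 300 bp or more, against 61.3% in POM. Ranks were therefore set within each library, and pileups (the number of fragments stacked on a summit) were compared only after division by the median ratio over shared peaks, 1.85. A scaled ratio of 1 is thus that of the median pair. Where all 4 libraries are ranked, each pileup was put on the scale of DMSO by its median ratio to DMSO, which was 0.716 for ATRA+POM, 0.397 for POM and 0.870 for ATRA. Other pileups are given as recovered and are not comparable between libraries until scaled.

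A total of 38901 pairs of overlapping peaks were shared, 52.5% of the wide ATRA+POM peaks and 91.8% of the wide POM peaks. The ranks followed each other closely (Spearman's rho 0.877 over the 38901 pairs). A pair was called higher or lower where its percentile differed by 10 points or more. In ATRA+POM, 8161 pairs (21%) were higher and 8212 (21.1%) were lower, and the median size of the difference was 8.01 points. Since percentiles are taken over the same pairs in both libraries, gains and losses balance by construction, and these counts say nothing of a net change.

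The 10 largest gains by overlap alone were at SH3BGRL2, ASXL2, ZNF765, HMGN1, ZFX, DACH1, PEX5L, TOX, HNRNPF and PRKAR1A, and in all 10 the ATRA+POM peak covered 2 or more POM peaks and was paired with a weak one. At SH3BGRL2 the ATRA+POM pileup was 196, against 24 in the paired POM peak, but 120 in the highest POM peak of the same region. These pairs are not read as gains. ZNF765 also belongs to a family of near-identical zinc finger genes. The 35646 pairs in which each peak overlapped exactly 1 peak of the other list, with summits within 250 bp, were therefore used for named regions, a choice made after these values were seen. Of them, 7491 (21%) were higher and 7484 (21%) lower.

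**Figure D1:**
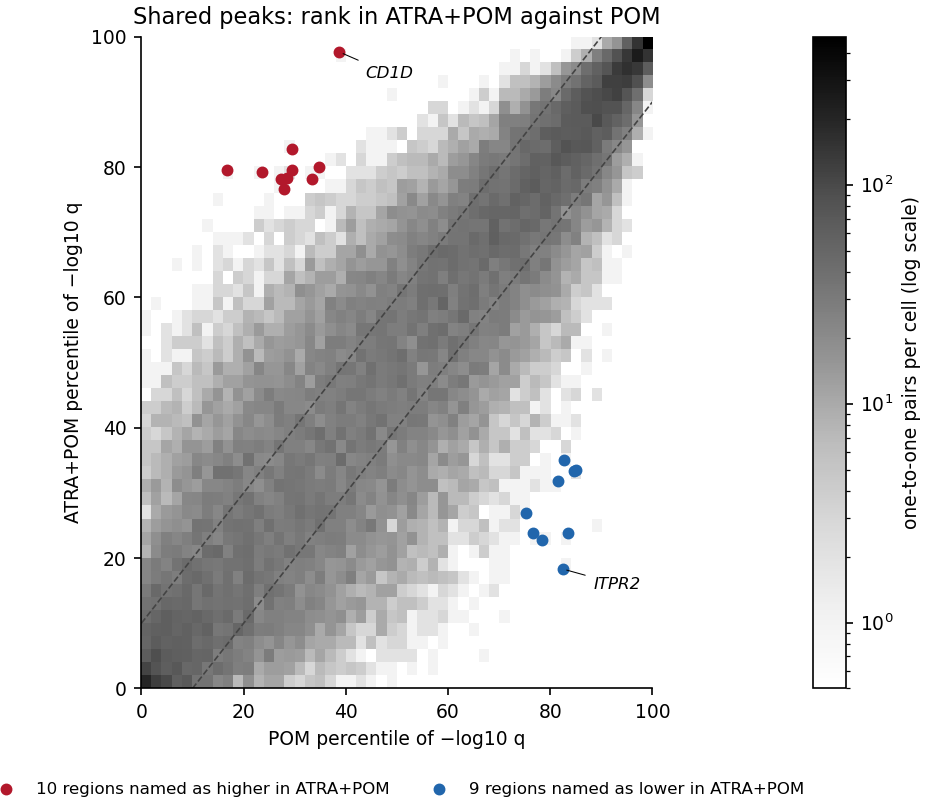
Percentile of −log10 q in ATRA+POM (vertical) against POM (horizontal) for the 35646 one-to-one shared pairs, shaded by the number of pairs per cell on a log scale. Dashed lines mark a difference of 10 points. Red points are the 10 largest gains and blue points the 9 losses described in ATRA+POM among pairs with a peak in the top 25%, and CD1D stands at the 97.7th percentile in ATRA+POM, against the 38.7th in POM.

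The clearest gain was at the promoter of CD1D, the surface molecule that presents lipid antigens to natural killer T cells and whose transcription retinoids are known to raise in human dendritic cells. The peak at chr1:158179337-158180147 had its summit 246 bp from the CD1D start site. Its pileup was 226 in ATRA+POM, against 20 in POM, and 56 in ATRA, against 14 in DMSO. On the scale of DMSO these pileups were 316 in ATRA+POM, 50.4 in POM, 64.4 in ATRA and 14 in DMSO, so ATRA+POM stood apart from the other 3 and ATRA was close to POM. Among one-to-one pairs its percentile was 58.9 points higher in ATRA+POM than in POM. The scaled ratio of ATRA+POM to POM was 6.10 (95% counting interval 3.85 to 10.2), and that of ATRA to DMSO was 4.60 (2.53 to 8.95). Among the 27980 one-to-one pairs with a summit in all 4 lists, 23 regions were at least 2-fold higher in both comparisons, and the CD1D promoter had the largest ATRA+POM to POM ratio of these 23. It was also the largest of all 35646 one-to-one pairs, the next being a region of chromosome 18 with no gene within 100 kb at 4.05, where POM had 6 fragments. ATRA+POM also stood 4.90-fold above ATRA in scaled pileup, at a region chosen on ATRA+POM against POM, which favours a high ATRA+POM.

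The other strong peaks around CD1D differed by less. The peak 30.1 kb before the CD1D start had pileups of 145 in ATRA+POM and 87 in POM, and 177 in ATRA and 193 in DMSO. Its scaled ratios were 0.899 (0.685 to 1.19) with POM and 1.05 (0.855 to 1.30) without it. The peak 16.7 kb before the start had 152 in ATRA+POM and 101 in POM, a scaled ratio of 0.812 (0.627 to 1.05), and 137 in ATRA and 122 in DMSO, a scaled ratio of 1.29 (1.004 to 1.66). The peak 24.0 kb after the start moved in the same direction as the promoter and by less, with 125 in ATRA+POM and 44 in POM, and 146 in ATRA and 113 in DMSO. Its scaled ratios were 1.53 (1.08 to 2.21) and 1.49 (1.15 to 1.92), both intervals above 1. A peak 68.4 kb after the start, toward the CD1A end of the family cluster, had 172 in ATRA+POM and 104 in POM, against 35 in ATRA and 54 in DMSO. Both libraries with POM were above both without it there, with 240.2 in ATRA+POM and 262 in POM on the scale of DMSO, against 40.2 in ATRA and 54 in DMSO, while the ratio of ATRA+POM to POM was 0.892 (0.695 to 1.15).

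**Figure D2:**
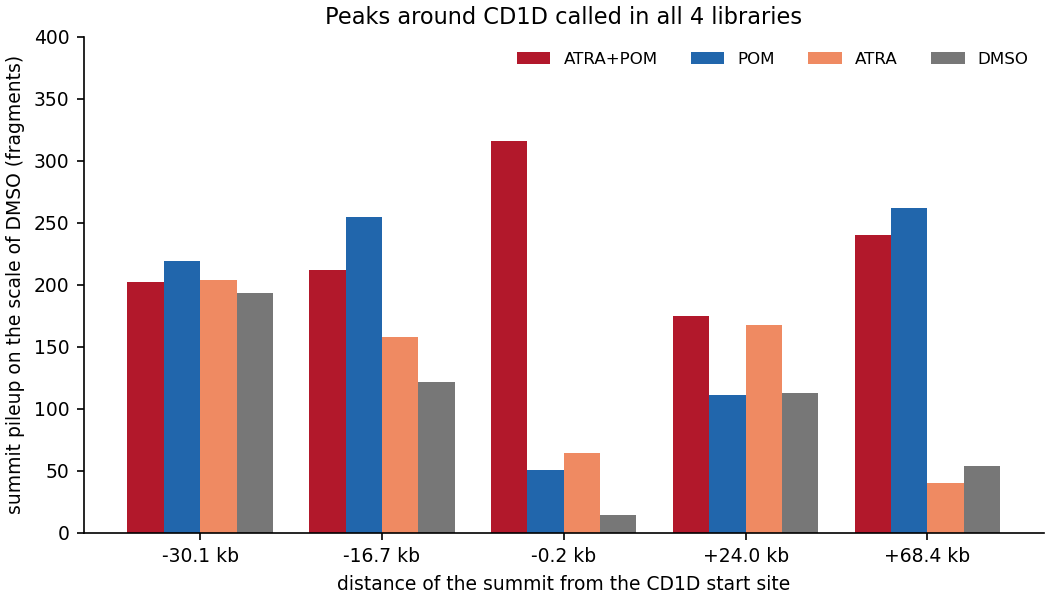
Summit pileup on the scale of DMSO (linear axis from 0) of the 5 peaks around CD1D called in all 4 libraries, by distance of the summit from the CD1D start site. At the promoter ATRA+POM reached 316, against 50.4 in POM, and ATRA reached 64.4, against 14 in DMSO, and both scaled ratios there are larger than at the other 4 peaks shown.

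Of the 10 largest one-to-one gains, 7 had no protein-coding gene within 100 kb, and the 3 with a gene were at CD1D, LARS2 and HYCC2. The largest by rank, on chromosome 6 at chr6:19587053-19587989, had a pileup of 78 in ATRA+POM, against 11 in POM, and 88 in ATRA, against 60 in DMSO. It lay 250 kb from ID4, its nearest gene, and its scaled ratios were 3.83 (2.02 to 7.98) with POM and 1.69 without it. The peak 7.18 kb from LARS2, the mitochondrial leucyl-tRNA synthetase, had 74 in ATRA+POM and 13 in POM, against 34 in ATRA and 35 in DMSO. The peak within HYCC2, a subunit of the complex that anchors a phosphatidylinositol kinase at the plasma membrane, had 100 in ATRA+POM and 21 in POM, against 42 in ATRA and 57 in DMSO. On the scale of DMSO, ATRA+POM was the highest of the 4 libraries at both, a position favoured by the choice of regions on ATRA+POM against POM. The scaled ratio of ATRA to DMSO was 1.12 at LARS2 and 0.847 at HYCC2. Over the 10, ATRA was higher than DMSO by 10 points or more at 4 of the 9 regions with a summit in all lists and lower at 1.

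The 10 largest losses were all within 100 kb of a protein-coding gene, 5 of them within 1 kb of a start site, and 9 are described here. At the start of PIP5K1C, a phosphatidylinositol phosphate kinase, pileups were 27 in ATRA+POM and 41 in POM, and 53 in ATRA and 109 in DMSO. Each library with ATRA was below its counterpart without it, with scaled ratios of 0.355 (0.210 to 0.592) with POM and 0.559 without it. The largest fall in rank was in ITPR2, an inositol trisphosphate receptor of the endoplasmic reticulum, with 27 in ATRA+POM and 49 in POM, against 32 in ATRA and 36 in DMSO. The scaled ratios were 0.297 with POM and 1.02 without it, and the difference between them was not tested. At the SHC1 start, a signalling adaptor, pileups of 117 in ATRA+POM and 120 in POM stood on local backgrounds of 46.4 and 23.2 fragments, and the drop of 55.3 points over all shared pairs was −6.92 when ranks were taken on fold. Of the remaining losses, those at ST6GALNAC4 and MAN2B2 lay within the gene. The others lay 2.615 kb from ALDH3B2, 6.22 kb from ANKRD50, 16.2 kb from MARCKS and 78.9 kb from PRAG1. These regions were chosen on ATRA+POM against POM, which favours a low ATRA+POM. On the scale of DMSO, ATRA+POM was the lowest of the libraries that called the region at 8 of the 10. The exceptions were ITPR2, with 37.7 in ATRA+POM and 124 in POM, and 36.8 in ATRA and 36 in DMSO, and MARCKS, with 40.5 in ATRA+POM and 121 in POM, and 42.5 in ATRA and 40 in DMSO. At both, POM was the library that stood apart.

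**Figure D3:**
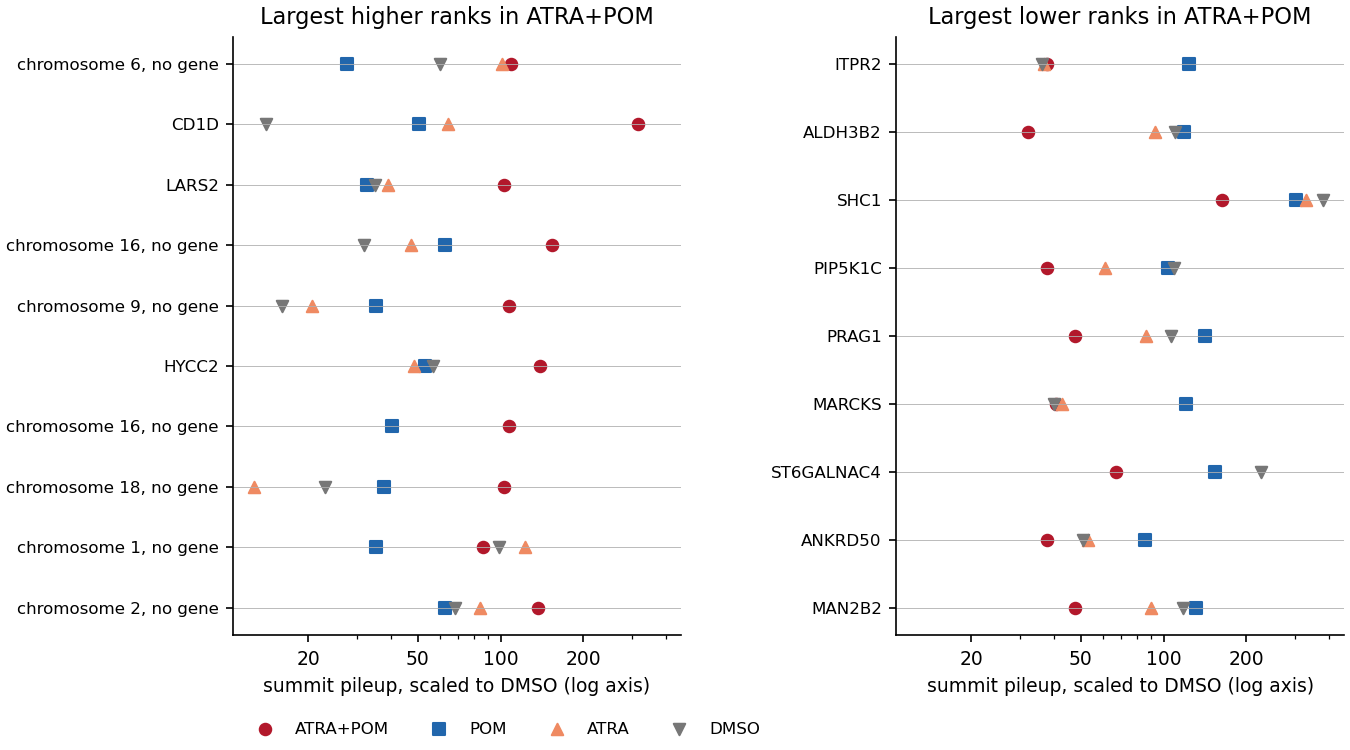
Summit pileup on the scale of DMSO (log axis) in the 4 libraries for the 10 largest one-to-one gains (left) and the 9 losses described (right) in ATRA+POM against POM. A missing symbol means that no summit was called within 250 bp. Regions were chosen on ATRA+POM against POM, which favours an extreme position of ATRA+POM. Among the gains, ATRA+POM was the highest of the libraries shown at 9 of 10. Among the losses, it was not the lowest at ITPR2 and MARCKS.

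The same regions were then followed in ATRA and DMSO. Of 29642 pairs with a summit in all 4 lists, 11.1% were higher and 11.7% lower in ATRA than in DMSO by 10 points or more. Among the 6305 that were higher in ATRA+POM than in POM, 1077 (17.1%) were also higher in ATRA and 644 (10.2%) were lower. Among the 6272 that were lower in ATRA+POM, 650 (10.4%) were higher in ATRA and 1037 (16.5%) were lower. The 2 comparisons thus leaned the same way at shifted regions, and the lean was weak: over 27980 one-to-one pairs the log2 scaled ratios had a Pearson correlation of 0.181 and a Spearman correlation of 0.162, given as a description.

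By the stricter measure of a 2-fold scaled ratio, 439 regions (1.57%) were higher and 433 (1.55%) lower in ATRA+POM than in POM. In ATRA against DMSO, 177 (0.633%) were higher and 282 (1.01%) lower. The 23 regions higher in both made up 5.24% of the ATRA+POM gains and 13.0% of the ATRA gains. The 13 lower in both were among 433 ATRA+POM losses and made up 4.61% of the ATRA losses. In 4 regions the directions were opposite.

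**Figure D4:**
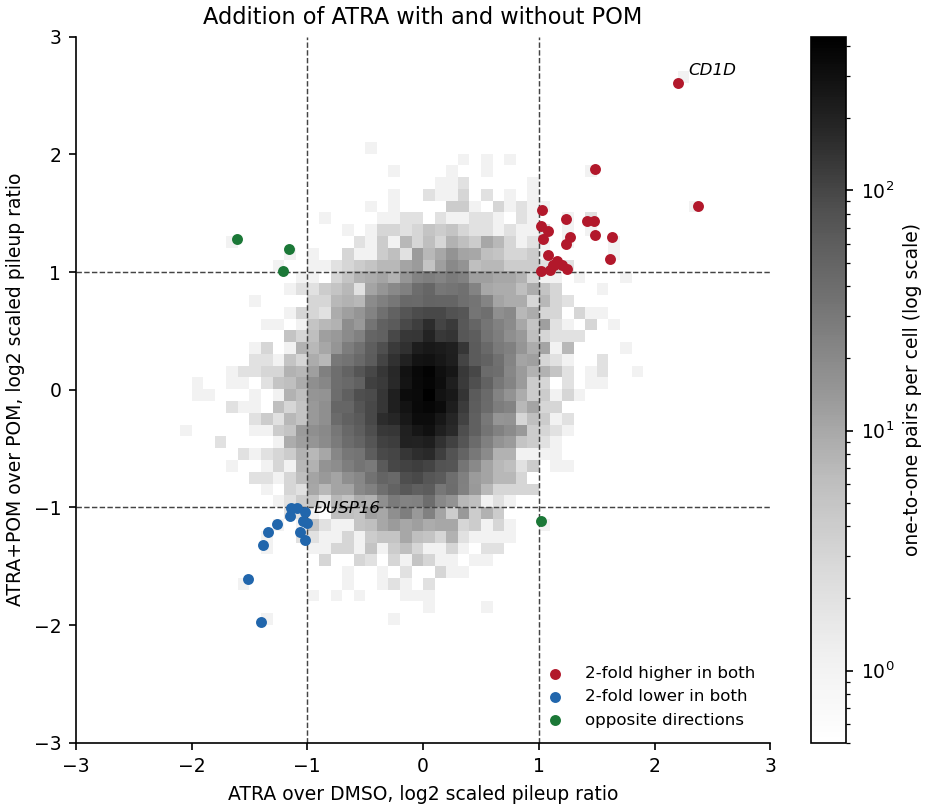
Log2 scaled pileup ratio of ATRA+POM over POM (vertical) against ATRA over DMSO (horizontal) for 27980 one-to-one pairs with a summit in all 4 lists, shaded by pairs per cell on a log scale. Dashed lines mark 2-fold. CD1D lies at the far upper right and DUSP16 at the lower left, among the 23 regions higher and the 13 lower in both.

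Besides CD1D, the regions higher in both lay mostly far from start sites. Only the CD1D peak of the 23 was within 1 kb of one, and 13 (56.5%) lay beyond 100 kb. Of all ATRA+POM gains 47.2% and of all ATRA gains 50.8% lay that far, against 22.8% of the 27980 pairs, so the location was that of 2-fold gains in general. CDH18, a type II cadherin of cell adhesion, held 2 of them. The stronger, 2.91 kb from a start site, had 61 in ATRA+POM and 12 in POM, and 43 in ATRA and 21 in DMSO. The peak 30.6 kb from NR5A2, a nuclear receptor of liver and gut, had 34 in ATRA+POM and 5 in POM, and 39 in ATRA and 16 in DMSO. The peak 25.4 kb from EFNB2, which encodes the cell-surface ligand ephrin-B2, had 75 in ATRA+POM and 19 in POM, and 35 in ATRA and 18 in DMSO. Another lay within SPAG16, 298 kb from a start site. Others were 7.03 kb from TMEM33, 23.8 kb from PPP1R14C, 57.0 kb from KCND2, 71.3 kb from SUDS3 and 88.1 kb from POTEA. POTEA is a member of a family of near-identical copies. POM pileups at the 23 ran between 5 and 22, and the counting interval of the ratio of ATRA+POM to POM lay above 1 in 18 of the 23.

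Among regions lower in both, the one with the highest pileups was at the start of DUSP16, a phosphatase that dampens JNK and p38 MAP kinase signalling. It had pileups of 100 in ATRA+POM and 117 in POM, and 143 in ATRA and 337 in DMSO, with scaled ratios of 0.461 (0.349 to 0.607) and 0.488. The peak within RCOR3, a corepressor of the LSD1 complex, had 44 in ATRA+POM and 55 in POM, and 22 in ATRA and 53 in DMSO. The peak within SENP5, a SUMO protease, had 29 in ATRA+POM and 38 in POM, and 21 in ATRA and 49 in DMSO. CATSPERH, LONP2, FARP2, FNBP1L, SAMD4A and NANOGP8 were other genes, and NANOGP8 is a near-identical copy of NANOG.

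Few of the highest peaks were in 1 list only, and their number depended on the settings. Among the 30000 highest, 609 ATRA+POM peaks (2.03%, Wilson interval 1.88 to 2.20) had no POM peak of any width, and 178 POM peaks (0.593%, 0.513 to 0.687) had no ATRA+POM peak. The 30000 highest reached down to a pileup of 26 in ATRA+POM and of 12 in POM, so the lists were not cut at the same strength. With lists of equal length, presence was judged against the 42388 highest wide peaks of the other list, and the counts were 3961 and 1745. For POM those are all its wide peaks, so 3961 is the count with narrow POM peaks ignored. With a minimum width of 400 bp the counts were 592 and 595, the opposite order. The ATRA+POM-specific peaks were of middling strength, none among the first 10000 of the list and 70 among the first 20000, with pileups of 26 to 79. Divided by the median ratio, such peaks would hold a median of 17.8 fragments in POM. The smallest pileup of any POM peak was 4, and the pileup needed for a call at these regions was not measured. Of the 609, 481 (79.0%) were also called in both ATRA and DMSO, against 92.5% of the 30000 as a whole, 36 were called in ATRA and not DMSO, and 23 in DMSO and not ATRA. In all, 504 of the 609 (82.8%) had a peak in the DMSO library. Of the 178 POM-specific peaks, 108 (60.7%) were called in both of the other lists, against 92.0% of the 30000, and 130 (73.0%) were narrower than 400 bp, against 21.8% of the 30000 highest. Multiplied by the median ratio, the POM-specific peaks would hold a median of 27.8 fragments in ATRA+POM, where the smallest pileup of any peak was 7.

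The strongest ATRA+POM-specific peak lay in TXLNB, a syntaxin-binding muscle protein, with a pileup of 63 in ATRA+POM and no peak in POM, and 38 in ATRA and 33 in DMSO. The peak near ASB5, a ubiquitin ligase adaptor, had 60 in ATRA+POM, and 40 in ATRA and 47 in DMSO. Peaks in TNN, an extracellular matrix tenascin, and SLAMF8, a lymphoid and myeloid surface receptor, had 71 and 73 in ATRA+POM, 111 and 65 in ATRA, and 105 and 69 in DMSO. The region at chrX:89539303-89539611, with no gene within 100 kb, had 47 in ATRA+POM and 19 in ATRA, and was called in neither POM nor DMSO. The other regions of the first 10 were at RSRC1, NRG1 and ANO5 and at 2 sites with no gene within 100 kb. The strongest POM-specific peaks were at PKD2, ALPP, NBPF20, JAKMIP2, FFAR2, RABL2B, LRP1B, ASAP2 and ATE1, with 21 to 36 fragments in POM, and PKD2, the cation channel polycystin-2, had 31 in POM, and 43 in ATRA and 43 in DMSO. NBPF20 and RABL2B have near-identical copies, which makes their counts uncertain.

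Few list-specific peaks were at promoters. Only 12 of the 609 ATRA+POM-specific peaks (1.97%) lay within 1 kb of a start site, against 29.4% of the 30000 highest, and 19 of the 178 POM-specific peaks (10.7%) did, against 30.8%. The 12 included POGZ, a chromatin regulator, with 46 in ATRA+POM, and 203 in ATRA and 228 in DMSO, and IL21R, the interleukin-21 receptor of B cells, with 32 in ATRA+POM, and 52 in ATRA and 61 in DMSO. No gene collected many: 445 genes had 1 ATRA+POM-specific peak, 23 had 2 and TRPM3, a cation channel, had 3. LRRC4C, DCC, EPHA6 and DLG2, long genes of neuronal adhesion and guidance, had 2 each, and LRRC4C had a POM-specific peak as well. All 160 genes with a POM-specific peak had 1.

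Where a shared peak lay relative to start sites went with its direction. For genes without a RefSeq start site, either gene boundary was used. Within 1 kb of a start site, 15.1% of 9706 pairs were higher in ATRA+POM and 15.1% were lower. At 1 to 10 kb, 19.97% were higher and 25.7% lower, and at 10 to 100 kb, 21.7% were higher and 24.8% lower. Beyond 100 kb the order turned, with 25.9% of 10304 pairs higher (Wilson interval 25.1 to 26.8) and 19.6% lower (18.8 to 20.3). Among the 50% of pairs with the higher mean percentile, the shares beyond 100 kb were 22.05% higher and 16.3% lower. ATRA against DMSO had 16.6% higher and 13.9% lower beyond 100 kb, and 3.79% higher and 6.62% lower within 1 kb. Among the stronger pairs, though, the order beyond 100 kb turned round for ATRA against DMSO, with 14.8% higher and 15.4% lower. Peaks beyond 100 kb were also weaker, with median pileups of 34 in ATRA+POM and 17 in POM, against 96 and 53 within 1 kb, and the part of strength in the result was not tested further.

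**Figure D5:**
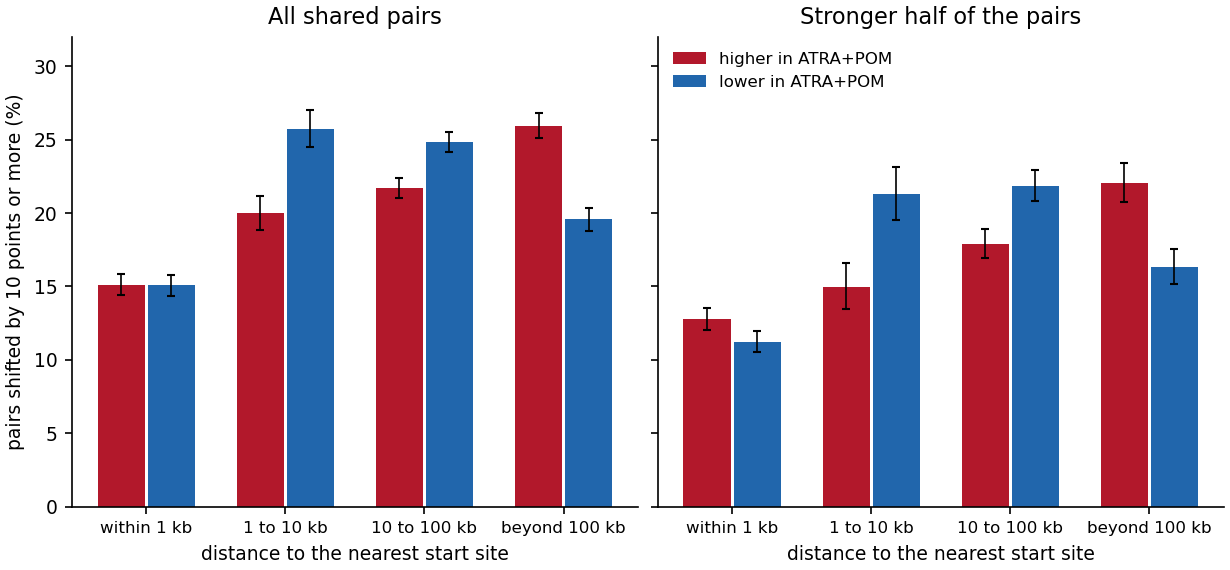
Share of shared pairs that were higher (red) or lower (blue) in ATRA+POM than in POM by 10 points or more, by distance to the nearest start site, for all pairs (left) and for those with a mean percentile above 50 (right). Bars start at 0 and whiskers are 95% Wilson intervals, which cover counting error only. Lower pairs outnumber higher ones from 1 to 100 kb, and higher ones outnumber lower ones beyond 100 kb.

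By chromosome, the median difference was 2.05 points on chromosome 21, 1.05 on chromosome 18 and 1.01 on chromosome 13, and −0.861 on chromosome 22, −0.763 on chromosome 15 and −0.745 on chromosome 1. The share of the 30000 highest that was ATRA+POM-specific was 3.42% on chromosome 18 and 3.04% on chromosome 4, which carry 3.36 and 4.05 protein-coding genes per Mb. It was 0.300% on chromosome 17, which carries 14.1. The order did not follow gene density throughout. Chromosome 13, with 2.96 genes per Mb, had 2.54%, chromosome 11, with 9.68, had 2.35%, and chromosome 19, with 24.8, had 0.720%.

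Across whole genes, 465 had 8 or more shared pairs, and their median difference lay between −20.01 and 17.0 points, with 12 genes at 10 or above and 16 at −10 or below. The highest were KLHL1, a neuronal actin-binding protein (17.0 points over 8 pairs), SEMA6D, a semaphorin of axon guidance (15.5 over 8), KCND2, a potassium channel (14.3 over 8), CDH18 (12.9 over 12) and ADAMTSL1, a matrix protein (11.8 over 13). At CDH18 11 of the 12 pairs were above 0, and the median of ATRA minus DMSO was 21.7 points over the 3 pairs with a summit in all lists. A pair with that difference had 24 in ATRA and 9 in DMSO, where peaks were called from 8 fragments. The lowest were DHX35, an RNA helicase (−20.01 over 8), the receptor tyrosine kinases ROR2 (−19.7 over 9) and ALK (−17.0 over 9), the calcium channel CACNA1A (−16.1 over 8) and ADARB2 (−13.8 over 9). For these 5 genes the ATRA minus DMSO medians lay between −4.34 and 3.25 points. KLHL1 had −0.344 points in ATRA minus DMSO, and the values for SEMA6D, KCND2 and ADAMTSL1 are not given here.

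Among the receptors themselves, 5 of 6 genes had shared pairs, 36 in all, of which 10 were higher and 10 lower, against 19.7% higher and 21.6% lower over the 32310 pairs assigned to any gene. RARB had 15 pairs, 3 higher and 4 lower, with a median of 0.04 points. Its first start site had a pileup of 44 in ATRA+POM and 22 in POM, and 74 in ATRA and 85 in DMSO, a scaled ratio of 1.08 (0.633 to 1.89). RARA had 102 in ATRA+POM and 80 in POM at its start, and 226 in ATRA and 242 in DMSO, 16.5 points lower, with a scaled ratio of 0.688 (0.508 to 0.934). The start of RARG had 80 in ATRA+POM and 31 in POM, 22.2 points higher with a scaled ratio of 1.39 (0.909 to 2.18), and 133 in ATRA and 149 in DMSO. The largest fall among receptors was 2.94 kb outside RXRA, with 23 in ATRA+POM and 30 in POM (scaled ratio 0.414, 0.229 to 0.736), and 60 in ATRA and 91 in DMSO. RXRG had its largest gain within the gene, with 80 in ATRA+POM and 26 in POM. RXRB had no shared pair.

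Genes of retinoid response and metabolism had 50 pairs, 14 higher (28%) and 7 lower (14%), with a median of −0.259 points. Over pairs assigned to any gene the shares were 19.7% and 21.6%. The peak 1.92 kb from the CYP26A1 start, whose window with the direct repeat is printed above, had 68 in ATRA+POM and 21 in POM (27.8 points higher, scaled ratio 1.75, 1.06 to 3.001), and 63 in ATRA and 58 in DMSO. The peak 2.72 kb from CYP26B1, the related enzyme, had 33 in ATRA+POM and 30 in POM (31.1 points lower), and that near DHRS3, a retinal reductase, had 25 in ATRA+POM and 21 in POM (19.3 points lower). NR2F2, an orphan nuclear receptor, had 4 of 5 pairs higher and none lower. The peak 96.5 kb from NRIP1, a nuclear receptor corepressor, had 81 in ATRA+POM and 18 in POM (scaled ratio 2.43, 1.44 to 4.30), against 50 in ATRA and 48 in DMSO. The list thus held pairs that were higher and pairs that were lower.

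The cereblon ligase and its drug-recruited substrates had 43 pairs, 8 higher (18.6%) and 9 lower (20.9%), near the 19.7% and 21.6% over all genes. The CRBN start had 170 in ATRA+POM and 84 in POM, and 148 in ATRA and 162 in DMSO, a scaled ratio of 1.09 (0.836 to 1.44). IKZF1 had 2 pairs higher and 3 lower, and IKZF3 2 higher and none lower. The peak 3.32 kb from IKZF3 had 142 in ATRA+POM and 50 in POM (scaled ratio 1.53, 1.10 to 2.16), and 251 in ATRA and 300 in DMSO.

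Plasma cell identity genes had 54 pairs, 11 higher and 11 lower (20.4% each), near the 19.7% and 21.6% over all genes. PRDM1, the master regulator of plasma cells, had 9 pairs. The peak 0.04 kb from its first start site had 156 in ATRA+POM and 113 in POM, and the peak 0.053 kb from another had 66 in ATRA+POM and 56 in POM, 38.3 points lower (scaled ratio 0.636, 0.439 to 0.925), and 108 in ATRA and 153 in DMSO. The IRF4 start had 149 in ATRA+POM and 94 in POM, 4.74 points lower, and the MYC start had 65 in ATRA+POM and 51 in POM, 27.8 points lower (scaled ratio 0.688, 0.469 to 1.01). At CD38, the antibody target, the start had 148 in ATRA+POM and 65 in POM, 7.28 points higher. ZBTB20, a plasma cell survival factor, had 9 shared pairs, 0 higher and 3 lower, with a median of −5.16 points. It also had 2 ATRA+POM-specific peaks, each of which was called in ATRA and in DMSO as well.

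The t(4;14) genes had only 6 pairs, 1 higher (16.7%) and 4 lower (66.7%), against 19.7% and 21.6% over all genes. FGFR3 had 21 in ATRA+POM and 16 in POM at its start (10.7 points lower), and 34 in ATRA+POM and 27 in POM at 1.28 kb beyond the gene (33.1 points lower). The NSD2 start moved the other way, with 41 in ATRA+POM and 19 in POM (20.9 points higher), and the counting interval of each of these 3 ratios included 1. At the start of LETM1, the neighbour, pileups were 61 in ATRA+POM and 56 in POM (scaled ratio 0.588, 0.402 to 0.860).

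B cell genes had 58 pairs, 10 higher (17.2%) and 15 lower (25.9%), with a median of −2.43 points. Antigen presentation genes had 16, 2 higher (12.5%) and 7 lower (43.8%), with a median of −7.28. Over all genes the shares were 19.7% and 21.6%. The counts of these 2 lists lean on CIITA, the switch of MHC class II genes, which is in both and had 4 of its 6 pairs lower. Its peak 0.016 kb from a start site had 60 in ATRA+POM and 48 in POM, and 238 in ATRA and 228 in DMSO. The start of BLNK, a B cell receptor adaptor, had 61 in ATRA+POM and 60 in POM (scaled ratio 0.548, 0.378 to 0.797), and 41 in ATRA and 91 in DMSO. Of the 4 ATRA+POM-specific peaks at B cell genes, 2 were near BCL11A, 1 near EBF1 and 1 in BLNK, and all 4 were called in ATRA and in DMSO as well.

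AP-1 genes had 52 pairs, 14 higher (26.9%) and 8 lower (15.4%), against 19.7% and 21.6% over all genes. The start of MAFF, a small MAF protein, had 73 in ATRA+POM and 18 in POM (scaled ratio 2.19, 1.29 to 3.90), and 133 in ATRA and 153 in DMSO. JUN had 2 pairs higher and 3 lower, and FOS had the only POM-specific peak among all list members, with 21 fragments. Myeloid differentiation genes had 19 pairs, 6 higher and 6 lower (31.6% each). The peak in S100A8, a calprotectin subunit of myeloid cells, had 68 in ATRA+POM and 17 in POM (scaled ratio 2.16, 1.25 to 3.92), and 91 in ATRA and 69 in DMSO. Of the ATRA+POM-specific peaks at list genes, which were at genes that include ZBTB20, BCL11A, EBF1, CEBPB, S100A8 and BLNK, only that 74.7 kb from CEBPB, a myeloid transcription factor, was called in neither ATRA nor DMSO, with 34 fragments in ATRA+POM. Interferon-stimulated genes had 40 pairs, 6 higher (15%) and 4 lower (10%). The start of IFI44L had 55 in ATRA+POM and 14 in POM, and 28 in ATRA and 58 in DMSO. BCL2 family genes (43 pairs, 7 higher and 7 lower), myeloma surface targets (42 pairs, 7 and 8) and HOXA and HOXB genes (11 pairs, 2 and 2) had near-equal numbers in both directions.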

How the data were processed

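ATAC-seq peak lists of 4 OPM-2 libraries, 1 per condition, were used as deposited on hg38, per the submitters' processing notes. Neither an aligner nor a peak caller is named in the labels. Per peak, each list gives the authors' score, their fold enrichment at the summit, the deposited −log10 p-value and the deposited −log10 q-value (column 9, the ranking value), with 1 list per library. The smallest −log10 q was near 1.30, that is q of 0.05. From the fold and the p-value, the summit pileup and its local background were recovered, within 0.01 of the deposited −log10 p for 100% of peaks. No total read count was used. The depth of ATRA+POM relative to POM was 2.74 by lowest background, 1.86 by that background per bp of each list's narrowest peak, and 1.85 by the median of shared pileups, which was used for scaling.

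Peaks of at least 300 bp were paired by mutual largest overlap (1 bp or more), and percentiles were taken over the paired peaks of each library. Scaled ratios are pileup ratios over their median, with exact conditional 95% intervals. Start sites came from RefSeq (GRCh38.p14) for 15812 of 19974 protein-coding genes. For the others either gene boundary stood in, so some distances to a start site may be to a gene's end. A peak was assigned to the nearest of the 19974 genes within 100 kb of its summit. All of the 218 genes in 13 lists matched. The regions named were the 10 strongest list-specific peaks of each list, the 10 largest differences in each direction with a peak in the top 25%, the 5 genes with most list-specific peaks, the 5 highest and lowest gene medians over at least 8 pairs, 18 fixed genes and list members with a list-specific peak. Other list genes, the one-to-one pairs, the 2-fold regions, the CD1 locus and the scaling of 4 libraries to DMSO were chosen after their values were seen. Members and lists were chosen with earlier results of these data known. The scripts were tested on simulated data. Python 3.11.15, numpy 2.4.6, pandas 2.3.3, scipy 1.17.1 and matplotlib 3.10.9 were used. Some genes that the rules name are not reported here.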

Additional observations from a re-analysis of the deposited data

Results flagged for a closer look

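In 4 one-to-one regions the scaled pileup ratio was past 2-fold in opposite directions in the comparison with POM and the comparison without it. The gap is the log2 ratio of ATRA+POM to POM minus the log2 ratio of ATRA to DMSO, and the difference was not tested, since each condition is 1 library. The gap was 2.89 near ZFPM2, with pileups of 36 in ATRA+POM and 8 in POM, and 12 in ATRA and 42 in DMSO. It was 2.35 at chr14:42149588-42150299, with no gene within 100 kb, where pileups were 51 in ATRA+POM and 12 in POM, and 16 in ATRA and 41 in DMSO. It was 2.22 in ERBB4, an epidermal growth factor receptor family kinase, with 41 in ATRA+POM and 11 in POM, and 12 in ATRA and 32 in DMSO. In PATJ, a cell polarity scaffold, it was −2.13, with 12 in ATRA+POM and 14 in POM, and 30 in ATRA and 17 in DMSO. The scaled ratio of ATRA+POM to POM in PATJ was 0.462, and its counting interval (0.195 to 1.08) included 1.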

How the results depend on the processing

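No paired analysis was possible because each condition has 1 library, and for the same reason no replicate could be left out. The number of list-specific peaks depended on the settings. ATRA+POM-specific peaks numbered 70 among the 20000 highest, 2235 among the 40000 highest, 3961 when only wide POM peaks counted as presence and also with lists of equal length, 1567 when presence needed a summit within 250 bp and 1185 when ranked by fold. Both settings with 3961 are the same for these peaks, since equal length left POM with all its wide peaks. The corresponding POM-specific counts were 24, 1138, 360, 1745, 1512 and 232, where 360 is with wide peaks and 1745 with equal lengths, and they were 452 with no width minimum and 595 at a minimum of 400 bp. With that minimum POM-specific peaks (595) outnumbered ATRA+POM-specific ones (592). The named list-specific peaks stayed specific in all 79 and 71 combinations of peak and setting in which they ranked. Except where presence needed a summit within 250 bp, this was fixed in advance. In the other settings they were compared with the same list of the other library or with a part of it. Shared pairs numbered 12605 higher and 12636 lower at 5 points, 3040 and 3097 at 20 points, and 4049 and 4055 with a pileup of at least 30 in both. Regions shifted in both comparisons numbered 1077 higher and 1037 lower by points, and 23 and 13 by 2-fold pileup. Pairs at list genes numbered 32 higher and 32 lower at 20 points. For the 20 named one-to-one pairs, 162 of 163 alternative values kept direction and stayed past the cutoff for a higher or lower call. The exception was SHC1 ranked by fold. The size of a difference was not compared between settings. SHC1 ranked by summit pileup was among those kept, at −11.2 points, against −55.3 in the main setting. The setting of 20 points used the main values again with a stricter cutoff. Because the ATRA+POM library was 1.85 times as deep as the POM library by the median of shared pileups, weak POM-absent peaks cannot be told apart from missed calls.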
